A study of Mus musculus with 16 samples.

Results

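NRF2 and antioxidant genes are followed here through chronic ultraviolet B (UVB) exposure of mouse skin. The set holds 34 of the 24421 genes of the deposited count table, chosen by name for their place in the NRF2 pathway, glutathione and thioredoxin metabolism, the pentose phosphate pathway and peroxide removal. All 34 were in the table, and all 34 passed the filter on low counts in every comparison. RNA was sequenced from skin of female SKH-1 mice, which are hairless and serve as a model of UVB carcinogenesis. Exposed mice received 60 mJ/cm2 of UVB in 2 sessions per week, and control mice received none. The 16 libraries form 8 groups of 2: UVB epidermis and control epidermis at week 2, at week 15 and at week 25, then tumor of exposed mice and whole skin of control mice at week 25. The titles number the libraries of a group 0 and 1, and these numbers are used below. Nothing in the labels states that a pair came from separate mice, so the p-values measure the spread between these libraries only, and that spread may be technical. They give no age or genotype beyond the strain.

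NRF2, encoded by Nfe2l2, is a transcription factor that its partner KEAP1 marks for destruction in resting cells. Oxidants and reactive chemicals modify KEAP1, NRF2 then builds up, and with small MAF proteins it binds antioxidant response elements near genes for glutathione synthesis, NADPH supply, peroxide removal and detoxification. Its activity is set largely through the stability of the protein, which RNA counts do not measure. In skin the pathway is known for handling the oxidants that UV light produces and for its part in the cornified layer.

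The core of the antioxidant response element, TGACNNNGC or its reverse GCNNNGTCA, was searched on both strands of the RefSeq promoter windows of build GRCm38.p6, which run from 250 bases before to 50 bases after a gene's start. Of the 34 members, 28 had a window and 9 of those (32.1%) held a match, against 3781 of all 27025 genes with a window (14%). By window, 9 of the members' 37 windows (24.3%) held one, against 4071 of all 32851 windows (12.4%). The letters can overlap TGACTCA, the consensus of AP-1, which lay within 2 of the 9 matches (Me1 and Prdx1). A match is a description of the letters and no evidence of binding. The 4 windows below belong to the members that differed between UVB and control epidermis in the mean over weeks and that hold a match. Of these genes, 2 were higher and 2 were lower. Each runs 5′ to 3′ in the direction of the gene with the match in capitals.

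Gclm, chr3:122245307-122245606, + strand: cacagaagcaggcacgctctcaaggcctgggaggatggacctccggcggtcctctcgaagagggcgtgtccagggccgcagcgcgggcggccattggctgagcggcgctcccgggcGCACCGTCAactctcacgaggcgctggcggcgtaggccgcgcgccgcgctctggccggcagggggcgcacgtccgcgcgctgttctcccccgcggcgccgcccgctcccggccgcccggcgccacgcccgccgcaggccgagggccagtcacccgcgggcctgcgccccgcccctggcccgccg

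Nfe2l2, chr2:75704614-75704913, - strand: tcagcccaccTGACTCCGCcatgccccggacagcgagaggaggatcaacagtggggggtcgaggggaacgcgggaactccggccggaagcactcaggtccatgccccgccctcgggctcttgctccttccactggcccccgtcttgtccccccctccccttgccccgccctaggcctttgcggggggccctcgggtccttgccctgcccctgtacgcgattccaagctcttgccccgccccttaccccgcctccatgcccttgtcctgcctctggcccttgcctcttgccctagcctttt

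Txnrd1, chr10:82858956-82859255, + strand: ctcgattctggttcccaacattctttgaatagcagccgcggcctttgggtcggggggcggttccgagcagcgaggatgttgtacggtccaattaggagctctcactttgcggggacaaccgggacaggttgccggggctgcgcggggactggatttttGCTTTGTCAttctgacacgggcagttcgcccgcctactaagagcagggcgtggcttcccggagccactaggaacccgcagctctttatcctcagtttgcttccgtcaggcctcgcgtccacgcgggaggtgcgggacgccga

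G6pdx, chrX:74428831-74429130, - strand: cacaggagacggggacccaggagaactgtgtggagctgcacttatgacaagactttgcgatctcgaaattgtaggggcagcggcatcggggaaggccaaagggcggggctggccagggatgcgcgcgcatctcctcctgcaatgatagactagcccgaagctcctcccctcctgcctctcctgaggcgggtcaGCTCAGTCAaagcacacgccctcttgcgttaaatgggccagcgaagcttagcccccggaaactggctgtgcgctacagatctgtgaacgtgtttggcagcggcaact

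With the first transcribed base as 1, the match began at -134 in the window of Gclm, at -240 in Nfe2l2, at -92 in 1 of the 3 windows of Txnrd1 and at -57 in G6pdx. The other members with a match were Me1 (-6), Pgd (4), Prdx1 (-133), Sod1 (-56) and Srxn1 (29), and none of these 5 passed the test in the mean over weeks. Of the 13 members that did pass it, 11 had a window.

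Library totals ranged from 2905165 counts (week 2 control 1) to 7959503 counts (whole skin 0), and the second lowest was 4854612. Per the file headers, duplicates had been removed before counting. Among genes of at least 500 exonic bases, the highest of every library stood at 1.83 to 2.11 counts per exonic base whatever the depth. Members reached up to 1.25 counts per base (Hmox1) and 1.20 (Gpx1), so differences in the most abundant members can be understated, and these can stand too high in a shallow library. Week 2 control 1 over week 2 control 0 had a median log2 difference of -0.30 over genes under 0.02 counts per base and of 0.88 over those above 1, and whole skin 1 over whole skin 0 had 0.78 above 1. Basal keratinocyte markers summed to 1089 to 2357 CPM over all 16 libraries, while fibroblast markers stood at 1186 to 1626 CPM in tumor, 615 to 1158 CPM in whole skin and 21.2 to 196 CPM in the 12 epidermis libraries. CPM values are counts scaled to a common library size by TMM, all 16 libraries together. In these bulk samples fewer cells of a type and less RNA per cell cannot be told apart.

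**Figure D1:**
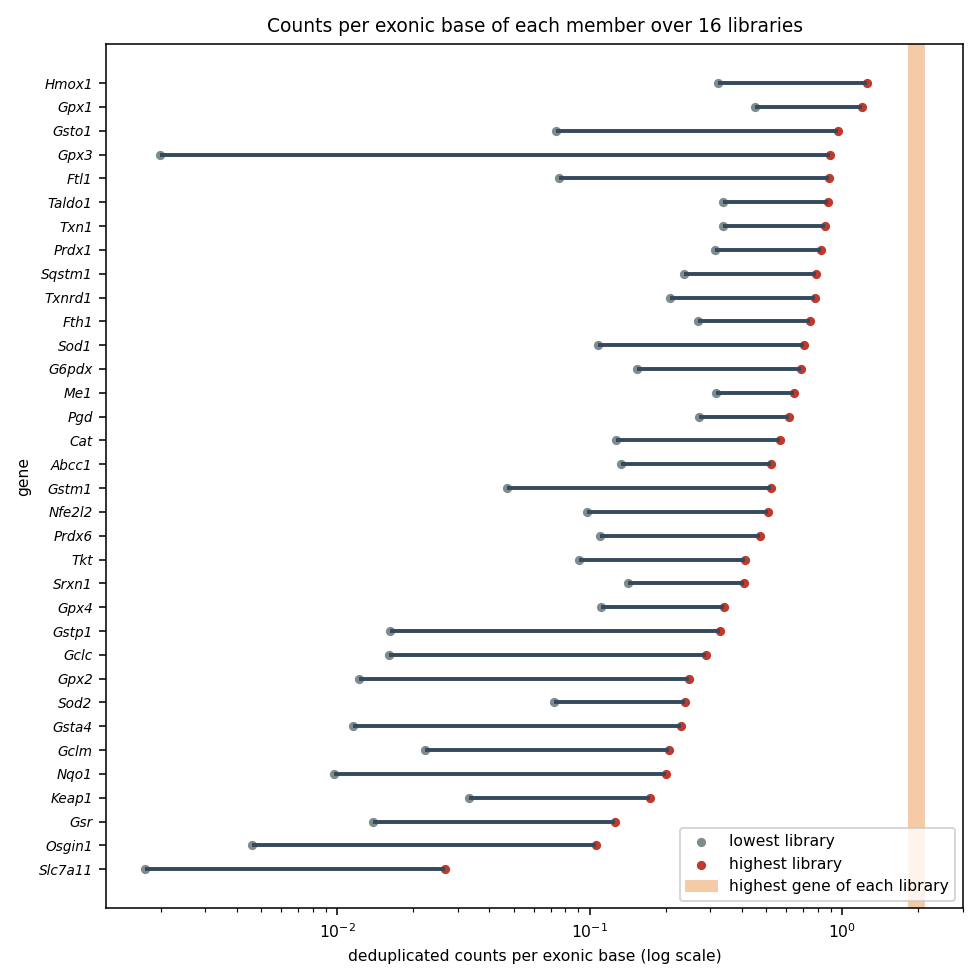
Deduplicated counts per exonic base (log axis) of each of the 34 members, with the lowest and the highest of the 16 libraries joined by a line. The band is the range of the highest gene of each library among genes of at least 500 exonic bases, 1.83 to 2.11. Hmox1 (1.25) and Gpx1 (1.20) come nearest to the band, and Slc7a11 lies lowest.

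Per kilobase of exon, Gpx1, the main cytosolic glutathione peroxidase, ranked first of the members in UVB epidermis at each week, and Hmox1, the stress-induced heme oxygenase, ranked first in control epidermis at each week. Gpx1 averaged 211 ± 5.3, 181 ± 1.6 and 193 ± 18.3 CPM per kilobase in UVB epidermis at weeks 2, 15 and 25, against 167 ± 31.5, 134 ± 27.3 and 134 ± 11.7 in control epidermis (SD, n = 2 each). Hmox1 averaged 320 ± 118.5, 138.5 ± 51.0 and 172 ± 37.3 CPM per kilobase in control epidermis, although at weeks 15 and 25 it differed from Gpx1 by less than the sum of their SDs. Slc7a11, the cystine carrier of the plasma membrane, and Osgin1, a growth inhibitor induced by oxidative stress, were among the 4 lowest members in every one of the 8 groups.

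As the mean over the 3 weeks, 13 of 34 members passed the test, 8 higher and 5 lower in UVB epidermis. Over all genes tested the share called was 29.5%, with 14.4% higher and 15.1% lower. The members' median log2 difference was 0.04 against -0.02 over all genes. The rises with the smallest p were in Nqo1, Gclm and Gsto1, whose 6 UVB libraries all lay above the 6 control libraries. The falls with the smallest p were in Abcc1 and Txnrd1. These 5 genes and Gpx1 were called in each of the 19 alternatives run. The count of 13 was 8 without week 15 control 0, 7 without week 15 UVB 1, 8 without week 25 UVB 0 and 12 without the week 2 libraries. Over all genes the count was 3973, and it ran from 2816 to 4470 when each library was left out in turn. All adjusted p-values are from the quasi-likelihood F test of edgeR, adjusted by Benjamini and Hochberg's method over the genes tested. Called means an adjusted p below 0.05, and each log2 difference carries the fit's standard error.

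**Figure D2:**
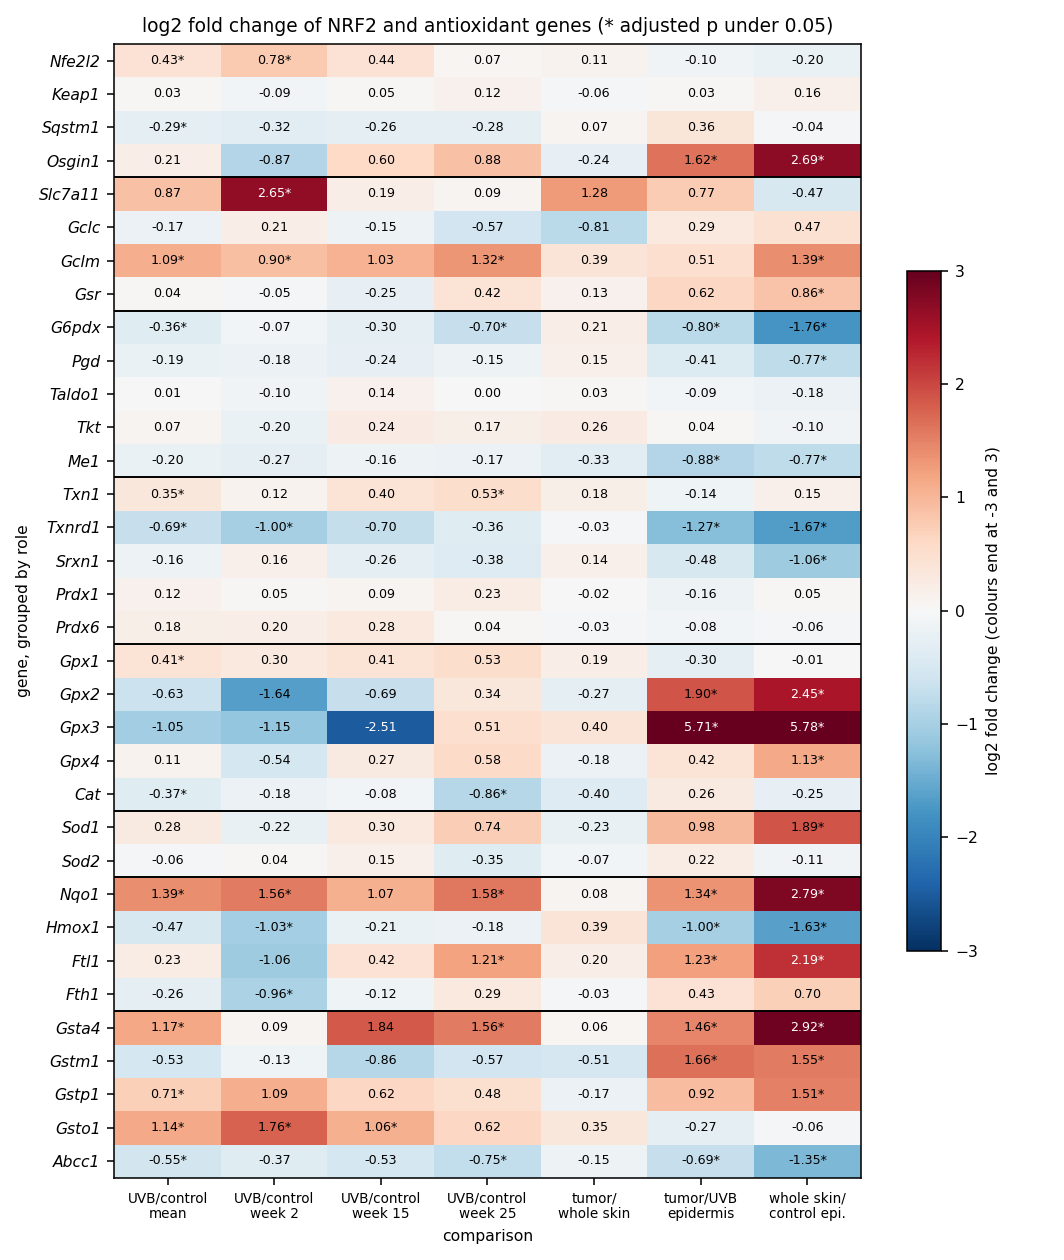
Log2 fold change of each of the 34 members (rows, grouped by role) in 7 comparisons (columns), with an asterisk where the adjusted p was under 0.05. Nqo1 (1.39), Gsta4 (1.17), Gsto1 (1.14) and Gclm (1.09) have the largest called rises in the mean over weeks, while Gpx3 differs by 5.71 between tumor and UVB epidermis.

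Among the sensor and regulators, Nfe2l2 itself was higher after exposure. Its level ran from 167.9 CPM through a median of 186.0 to 230.3 CPM in the 6 UVB libraries, and from 101.5 through 141.3 to 174.3 CPM in the 6 control libraries, so the arms overlapped only at their edges. The mean difference was 0.43 ± 0.12 on the log2 scale (adjusted p = 0.0195). The difference was larger at week 2, where UVB epidermis had 230.3 and 201.6 CPM against 143.0 and 101.5 CPM in control epidermis (log2 0.78 ± 0.16, adjusted p = 0.0103). At week 25 UVB epidermis had 177.8 and 167.9 CPM and control epidermis 174.3 and 156.8 CPM, and the ranges overlapped. Without the week 2 libraries the mean difference was 0.27 (adjusted p = 0.0705), and the difference of its UVB effect between weeks did not pass the test (adjusted p = 0.192).

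Keap1, the repressor of NRF2, had a median of 79.98 CPM in UVB epidermis and 77.3 CPM in control epidermis, and its arms overlapped almost wholly. Sqstm1, the autophagy receptor that can pull KEAP1 away from NRF2, was lower by a small step, with a median of 158.8 CPM (range 137.8 to 172.8) in UVB epidermis against 197.4 CPM (range 138.7 to 206.0) in control epidermis (log2 -0.29 ± 0.09, adjusted p = 0.0267). That call was lost when 1 of 8 of the 12 libraries was left out (adjusted p up to 0.118), and it held without week 2 control 1, week 2 UVB 0, week 15 control 1 or week 25 control 1.

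In glutathione supply, Gclm was higher in the mean over weeks and Slc7a11 at week 2, while the other 2 genes did not pass the test. Gclm, the modifier subunit of the enzyme that begins glutathione synthesis, had 36.11 and 31.96 CPM at week 2, 25.82 and 44.37 CPM at week 15 and 38.89 and 43.07 CPM at week 25 in UVB epidermis. Control epidermis had 16.48 and 19.37, 15.99 and 17.64, and 16.55 and 16.26 CPM at the same weeks. Every UVB library lay above every control library, and the mean difference was 1.09 ± 0.15 (adjusted p = 0.000562). Gclc, the catalytic subunit of the same enzyme, had a median of 39.88 CPM in UVB epidermis and 48.02 CPM in control epidermis with overlapping arms, and Gsr, the glutathione reductase, had 25.1 CPM in UVB epidermis and 23.73 CPM in control epidermis.

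Slc7a11 had the smallest p of the members for a UVB effect that differed between weeks. At week 2 it had 39.13 and 42.67 CPM in UVB epidermis against 6.06 and 6.74 CPM in control epidermis, a gap far wider than the spread within either pair. At week 15 it had 18.42 and 21.25 CPM in UVB epidermis against 13.19 and 20.81 CPM in control epidermis. At week 25 it had 16.78 and 21.80 CPM in UVB epidermis against 13.96 and 22.20 CPM in control epidermis, and at both weeks the groups overlapped. The difference of the UVB effect between weeks passed the test for Slc7a11 alone among the 34 members (adjusted p = 0.0343, week 25 effect less week 2 effect -2.56), where 1.6% of all genes tested were called. Part of that difference lay in the controls: Slc7a11 was also the 1 member called between weeks in control epidermis (adjusted p = 0.0486, week 25 over week 2 log2 1.48; 4.9% of all genes called), and no member was called between weeks in UVB epidermis (0.965% of all genes called; the smallest adjusted p was 0.0906, for Slc7a11). In that last comparison edgeR gave 4 members an unadjusted p under 0.05 and DESeq2 called 3. The interaction call was lost without any 1 of 9 of the 12 libraries (adjusted p up to 0.148) and kept without week 2 control 0, week 15 control 0 or week 15 control 1; the call between weeks in controls was lost without any 1 control library other than week 15 control 0.

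**Figure D3:**
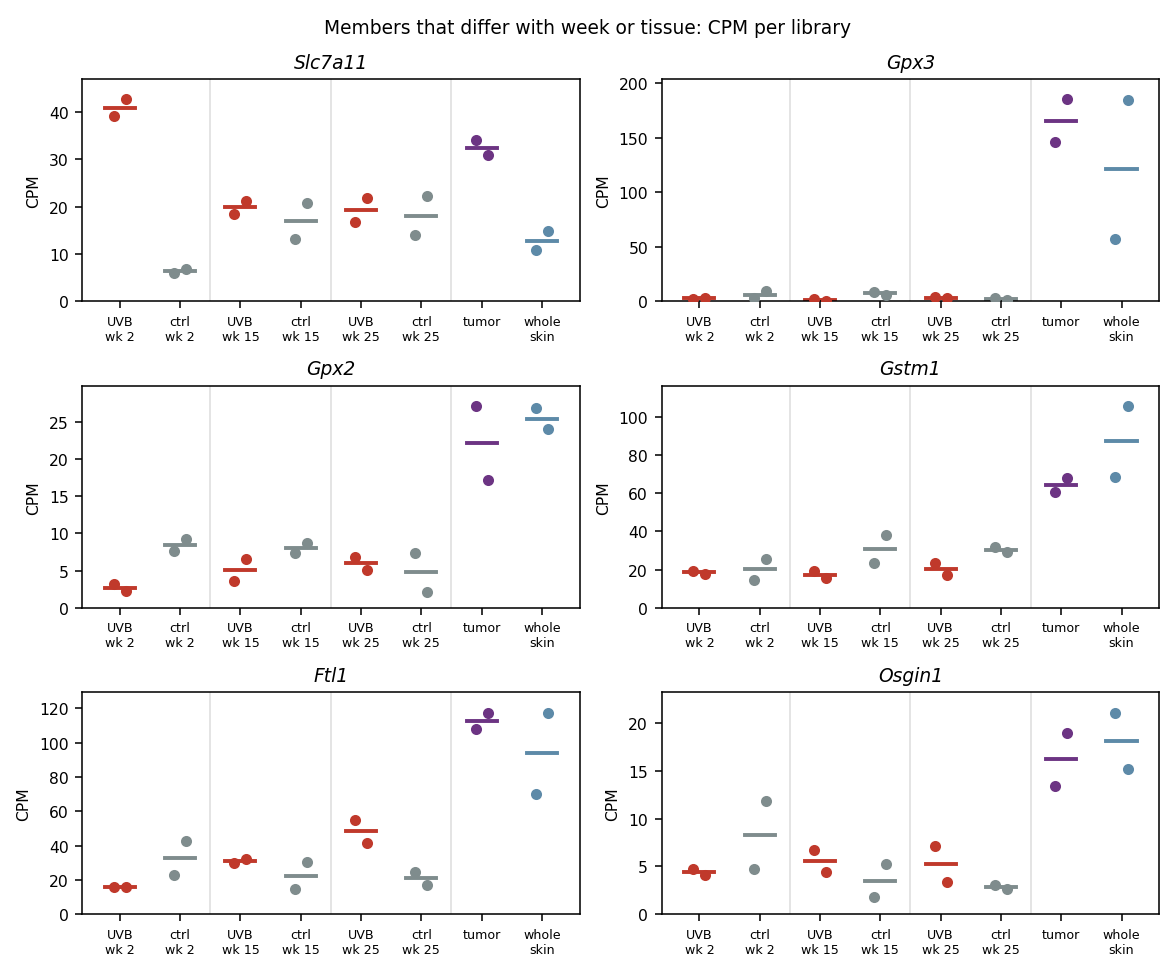
CPM of 6 members in each library (points) with the mean of each pair (bar), by week and tissue. Slc7a11 stands at 39.13 and 42.67 CPM in UVB epidermis at week 2 and at 6.06 and 6.74 CPM in its controls, and Gpx3 at 145.6 and 184.9 CPM in tumor against under 10 CPM in every epidermis library.

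Of the 4 quinone, heme and iron genes, 1 (Nqo1) passed the test in the mean over weeks, and it was higher. Nqo1, a quinone reductase and the most used marker of NRF2 activity, had 13.42 and 18.66 CPM at week 2, 14.01 and 15.31 CPM at week 15 and 15.40 and 14.53 CPM at week 25 in UVB epidermis. Control epidermis had 4.55 and 6.32, 6.20 and 7.47, and 5.17 and 4.85 CPM. The arms did not overlap at any week. Nqo1 had the smallest p of all members in the mean over weeks (log2 1.39 ± 0.18, adjusted p = 0.000424), and it was called at week 2 (1.56 ± 0.32, adjusted p = 0.0103) and week 25 (1.58 ± 0.30, adjusted p = 0.00721).

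Hmox1, which like Nqo1 is a classical NRF2 target, had 238.4 and 271.0 CPM at week 2 in UVB epidermis against 372.3 and 636.3 CPM in control epidermis (log2 -1.03 ± 0.29, adjusted p = 0.0353). Fth1, the heavy chain of the iron store ferritin, had 76.38 and 91.03 CPM in UVB epidermis against 101.0 and 217.7 CPM in control epidermis (-0.96 ± 0.29, adjusted p = 0.0429). In both genes, and in Txnrd1, the high value came from week 2 control 1, the shallowest library, in which abundant genes stood high in general. Without it the week 2 differences were -0.56 for Hmox1 (adjusted p = 0.231), -0.28 for Fth1 (0.31) and -0.44 for Txnrd1 (0.323). Without week 2 UVB 0 or UVB 1 these 3 calls were lost as well, at log2 values of -0.83 to -1.12. Ftl1, the ferritin light chain, was called higher at week 25 with 54.90 and 41.83 CPM in UVB epidermis against 24.82 and 17.19 CPM in control epidermis (1.21 ± 0.38, adjusted p = 0.0424). At week 2 it had 15.69 and 16.06 CPM in UVB epidermis against 22.73 and 42.95 CPM in control epidermis (-1.06 ± 0.39, adjusted p = 0.0825, not called), and its mean difference over weeks was 0.23 (adjusted p = 0.653). Ferritin genes have near-identical copies in the genome, and their counts are uncertain since the treatment of shared reads is not given in the sources used here.

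Of the thioredoxin genes, Txn1 and Txnrd1 went opposite ways. Txnrd1, the cytosolic thioredoxin reductase, had 460.9 and 422.0 CPM at week 2, 317.4 and 294.7 CPM at week 15 and 304.2 and 435.7 CPM at week 25 in UVB epidermis. Control epidermis had 593.2 and 1120, 596.2 and 386.2, and 471.9 and 483.5 CPM. The mean difference was -0.69 ± 0.18 (adjusted p = 0.013), the arms overlapped, and the call held when any 1 library was left out. Txn1, the thioredoxin that this enzyme reduces, was higher, with a median of 140.9 CPM (range 129.5 to 148.0) in UVB epidermis against 101.4 CPM (range 96.01 to 149.1) in control epidermis (0.35 ± 0.11, adjusted p = 0.0259); week 2 control 1 was the 1 control library above the lowest UVB value. Leaving out week 15 UVB 1, week 25 control 0, week 25 control 1 or week 25 UVB 1 ended that call (adjusted p up to 0.0647). Srxn1, Prdx1 and Prdx6, which repair or form peroxiredoxins, had overlapping arms and log2 differences of -0.16, 0.12 and 0.18.

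**Figure D4:**
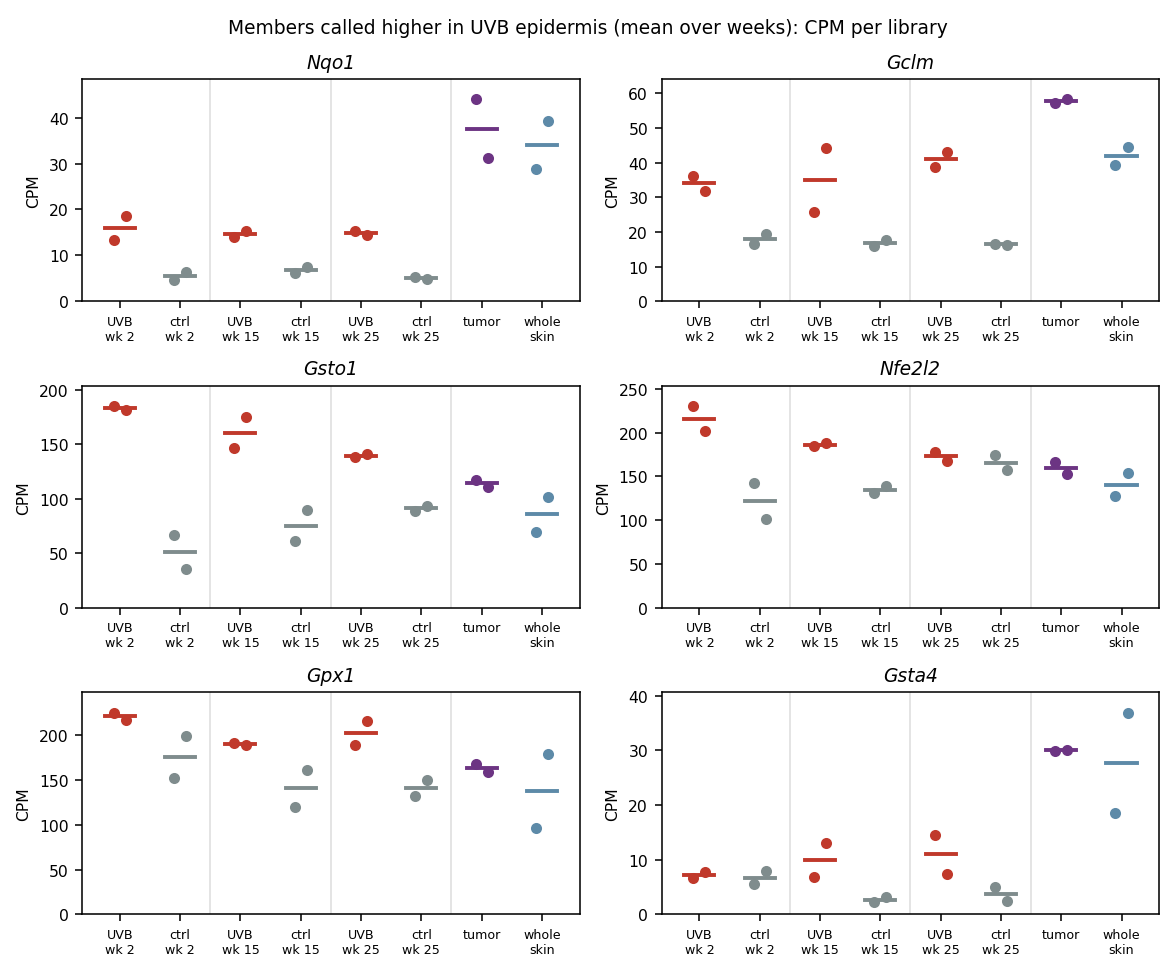
CPM of 6 members called higher in UVB epidermis in the mean over weeks, each library a point and each pair's mean a bar. In Nqo1, Gclm and Gsto1 every UVB epidermis library lies above every control epidermis library.

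Glutathione transferases held 3 of the 8 rises. Gsto1, an omega-class transferase that also reduces dehydroascorbate, had 185.1 and 181.4 CPM at week 2, 146.7 and 174.7 CPM at week 15 and 138.0 and 141.1 CPM at week 25 in UVB epidermis. Control epidermis had 67.26 and 35.79, 61.35 and 89.61, and 89.11 and 93.63 CPM. The arms did not overlap (1.14 ± 0.19, adjusted p = 0.00132). Gsto1 was called at week 2 (1.76 ± 0.25, adjusted p = 0.00417) and was the 1 member called at week 15 (1.06 ± 0.24, adjusted p = 0.0417).

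Gsta4, which detoxifies aldehydes from oxidised lipids, had a median of 7.61 CPM (range 6.62 to 14.49) in UVB epidermis against 4.09 CPM (range 2.20 to 8.0) in control epidermis (1.17 ± 0.36, adjusted p = 0.0278). Gstp1 had a median of 15.66 CPM (range 11.15 to 18.76) in UVB epidermis against 8.71 CPM (range 5.05 to 15.73) in control epidermis (0.71 ± 0.22, adjusted p = 0.0311). Gstm1 had a median of 18.58 CPM in UVB epidermis against 27.38 CPM in control epidermis and did not pass the test (adjusted p = 0.0609). The Gsta4 call was lost without week 15 control 0, control 1 or UVB 1 or without week 25 control 1 or UVB 0 (log2 down to 0.95, adjusted p up to 0.0749), and that of Gstp1 in 7 of 12 such fits (adjusted p up to 0.0757) and without the week 2 libraries (0.57, adjusted p = 0.134). The 7 libraries for Gstp1 were week 2 control 0 and UVB 1, week 15 control 0, UVB 0 and UVB 1, and week 25 control 1 and UVB 0. Gstp1 and Gstm1 have close relatives in the genome, and their counts share the uncertainty of the ferritins.

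Abcc1, the efflux pump that exports glutathione conjugates, ran the other way. It had a median of 338.7 CPM (range 290.5 to 429.7) in UVB epidermis against 504.3 CPM (range 371.0 to 589.2) in control epidermis (-0.55 ± 0.12, adjusted p = 0.00477). Week 15 control 1, at 371.0 CPM, was the 1 control library within the UVB range. At week 25 the pairs were well apart, with 290.5 and 307.7 CPM in UVB epidermis against 523.0 and 485.7 CPM in control epidermis (-0.75 ± 0.20, adjusted p = 0.0265).

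Of the 5 members of NADPH supply, 1 (G6pdx) passed the test in the mean over weeks, and it was lower. G6pdx, the first enzyme of the pentose phosphate pathway, had 278.3 and 233.5 CPM at week 2, 187.5 and 197.5 CPM at week 15 and 166.7 and 165.9 CPM at week 25 in UVB epidermis, against 260.7 and 263.6, 282.8 and 185.1, and 261.1 and 279.3 CPM in control epidermis. The pairs overlapped at weeks 2 and 15 and were apart at week 25, where the fall passed the test (-0.70 ± 0.18, adjusted p = 0.0237), as did the mean (-0.36 ± 0.12, adjusted p = 0.046). Pgd, Taldo1, Tkt and the malic enzyme Me1 had mean differences of -0.19, 0.01, 0.07 and -0.20 and did not pass the test. The exons of Tkt, Me1 and Prdx1 overlap other genes of the table, and reads there cannot be assigned with the counting settings known.

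**Figure D5:**
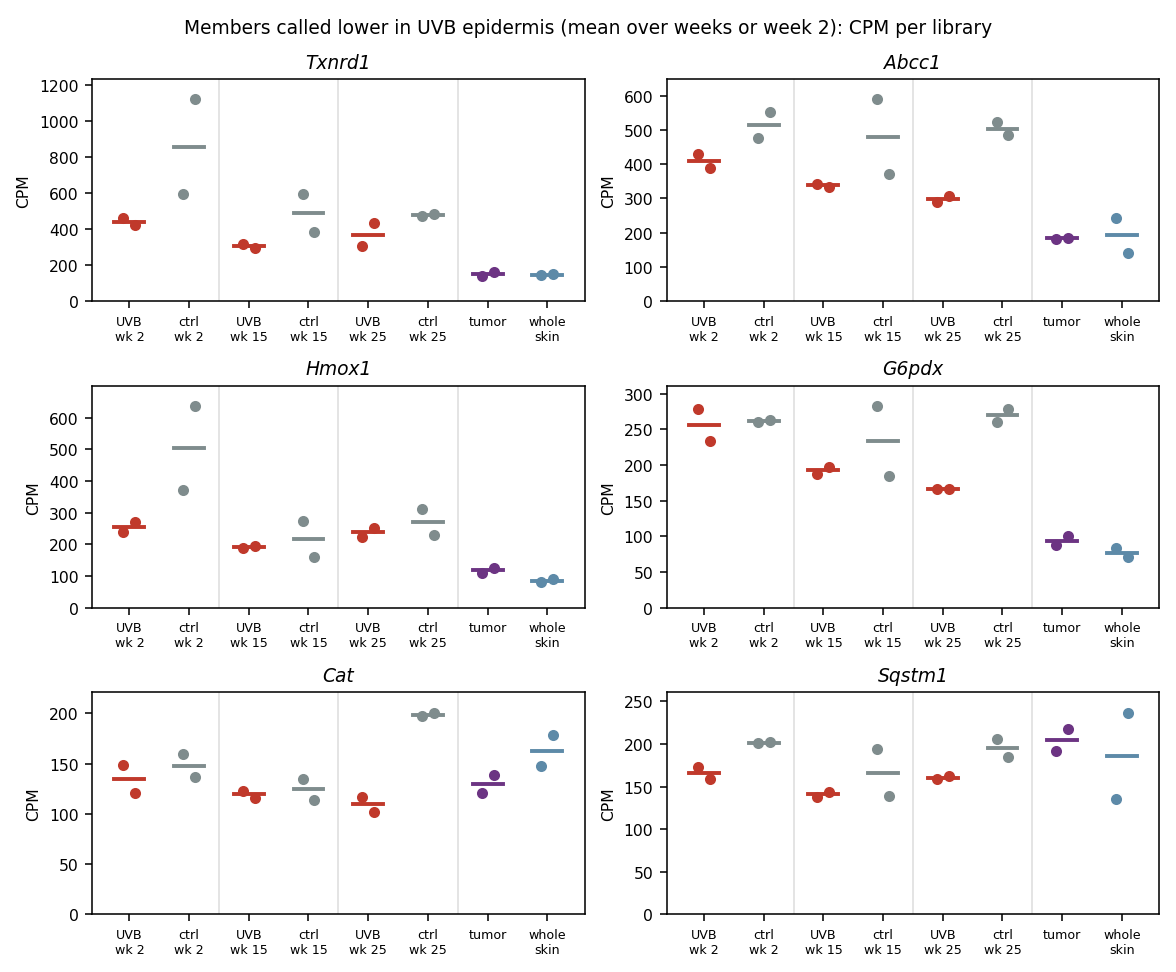
CPM of 6 members called lower in UVB epidermis in the mean over weeks or, for Hmox1, at week 2, each library a point and each pair's mean a bar. Week 2 control 1 gives the highest value of Txnrd1 (1120 CPM) and of Hmox1 (636.3 CPM).

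Of the 5 glutathione peroxidases and catalase, Gpx1 was called higher in the mean over weeks and Cat lower. Gpx1 had a median of 203.2 CPM (range 188.3 to 224.8) in UVB epidermis against 150.5 CPM (range 120.1 to 198.3) in control epidermis (0.41 ± 0.10, adjusted p = 0.0116), with week 2 control 1 the only control inside the UVB range. With counts corrected for the ceiling on counts per base, the difference of Gpx1 was 0.68. Cat, the peroxisomal catalase, had 116.7 and 101.9 CPM at week 25 in UVB epidermis against 196.8 and 200.6 CPM in control epidermis (-0.86 ± 0.15, adjusted p = 0.00497), and its overlapping values at weeks 2 and 15 left a mean difference of -0.37 ± 0.13 (adjusted p = 0.0472). The mean calls of Cat and G6pdx were kept without week 2 control 1, week 2 UVB 0 or week 15 control 1 and lost without any other 1 library (adjusted p up to 0.126 for Cat and 0.193 for G6pdx). Gpx4, the peroxidase that guards against ferroptosis, Gpx2 and the secreted Gpx3 did not pass the test, nor did the superoxide dismutases Sod1 and Sod2, with mean differences of 0.28 and -0.06.

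By week, 8 members were called at week 2 (5 higher and 3 lower; 17.8% of all genes called, 8.09% higher and 9.74% lower), 1 at week 15 (higher; 3.49% of all genes, 1.85% higher) and 8 at week 25 (5 higher and 3 lower; 21.5% of all genes, 10.6% higher and 10.9% lower). The shares of members called, 23.5%, 2.94% and 23.5%, lay near those over all genes. Besides the members above, Txn1 (0.53 ± 0.17, adjusted p = 0.0441) and Gsta4 (1.56 ± 0.49, adjusted p = 0.045) were called at week 25. These counts moved when single libraries were left out, and so did the counts over all genes. In these fits the lone library of a group is assumed to vary like the other groups. Slc7a11 and Gsto1 at week 2 and Cat at week 25 were called in each of the 11 alternatives run. At week 2 the call of Gclm was lost without any 1 of the 4 libraries (adjusted p up to 0.154), that of Nfe2l2 without either UVB library (up to 0.0644) and that of Nqo1 without UVB 1 (0.0978). At week 15 the call of Gsto1 was lost without control 0, UVB 0 or UVB 1 (up to 0.29). At week 25 the calls of Abcc1, G6pdx, Ftl1, Txn1 and Gsta4 were lost without any 1 library (up to 0.319), that of Gclm without either control library (up to 0.0581) and that of Nqo1 without control 1 or UVB 0 (up to 0.0581).

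Markers of other cell types differed with exposure as well. Hair follicle markers were called lower for 9 of 9 genes in the mean over weeks, with sums of 15.2 to 214 CPM in UVB epidermis against 476 to 1859 CPM in control epidermis. Shh, a defining marker, was at 0 in UVB epidermis at weeks 2 and 15. The sums in control epidermis averaged 1819 CPM at week 2 and 697.7 CPM at week 25. Whole skin of control mice had 38.0 to 124.5 CPM and tumor 37.7 to 71.4 CPM. Macrophage markers were called higher for 4 of 8 genes in the mean over weeks. At week 2, 1 was called higher and 1 lower, with sums of 67.0 to 69.95 CPM in UVB epidermis against 65.3 to 65.4 CPM in control epidermis. At week 15, 1 was called higher. At week 25, 6 were called higher, with sums of 119.8 to 161 CPM in UVB epidermis against 33.9 to 40.2 CPM in control epidermis. Neutrophil markers were called higher for 3 of 5 tested genes in the mean over weeks. Of these 5, 2 were called higher and 1 lower at week 2, 1 higher at week 15 and 4 higher at week 25. The sums of neutrophil markers were 221 to 300 CPM in UVB epidermis against 128 to 210 CPM in control epidermis. In the mean over weeks T cell markers were called higher for 1 and lower for 2 of 5 tested genes. Markers of differentiated keratinocytes were called lower for 2 of 8 (25%). Over all genes 29.5% were called in the mean over weeks, 14.4% higher and 15.1% lower. Of 7 tested fibroblast markers, 1 was called higher and 2 lower at week 2, and likewise 1 and 2 at week 15. At week 25, 6 of the 7 were called higher, with sums of 70.9 to 196 CPM in UVB epidermis against 23.1 to 23.4 CPM in control epidermis. The part of these cells in the members' differences was not tested.

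Genes of the wider redox network that are not among the 34, taken from a list of 124 of which 122 were in the table and 116 were tested in the epidermis, gave 52 calls in the mean over weeks (44.8%), 27 higher and 25 lower, beside 29.5% of all genes called (14.4% higher and 15.1% lower). The rises with the smallest p were Mgst2, a microsomal glutathione transferase (80.5 ± 10.2 CPM in UVB epidermis and 29.5 ± 7.52 CPM in control epidermis, SD, n = 6 each; log2 1.42 ± 0.14, adjusted p = 8.89e-05), H6pd, which makes NADPH in the endoplasmic reticulum (2.25 ± 0.24), and Akr1b8, an aldo-keto reductase (1.66 ± 0.21). The falls were led by Sod3, the extracellular superoxide dismutase (36.7 ± 7.4 CPM in UVB epidermis and 143.9 ± 60.2 CPM in control epidermis, SD, n = 6 each; -1.94 ± 0.23, adjusted p = 0.000235), Bach2, a repressor that competes for MAF partners (-2.08 ± 0.26), and Aldh3a2, a fatty aldehyde dehydrogenase (-0.85 ± 0.11). Of 13 further genes of NADPH supply 7 were higher (53.8%, against 14.4% of all genes) and 0 lower, while the corresponding members gave 0 and 1 of 5. No other role in the wider list had so high a share called higher. By week, 3 of the 13 were called higher at week 2 (8.09% of all genes), 1 at week 15 (1.85%) and 2 at week 25 (10.6%). At week 2, Chac1, which breaks down glutathione (-1.86 ± 0.22), and Cth, which makes cysteine (-2.15 ± 0.28), were lower, beside the rise of Slc7a11. The effect of UVB on Cth differed between weeks (adjusted p = 0.0474), and so did that on Tfrc, the transferrin receptor (adjusted p = 0.0461), which was higher at week 2 (0.98 ± 0.16). Cth and Chac1 were also called between weeks in control epidermis (adjusted p = 0.0183 and 0.0141). Cth had 28.99 and 24.0 CPM in control epidermis at week 2 and 9.14 and 6.88 CPM at week 25, and Chac1 had 220.9 and 204.7 CPM in control epidermis at week 2 and 79.63 and 75.19 CPM at week 25.

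Tumor against whole skin, both from week 25, gave no called member by edgeR's quasi-likelihood test (0% of 14661 genes called), with 1 member and 813 genes at an unadjusted p under 0.05; DESeq2 called 63 genes and 0 members. That 1 member was Slc7a11, which had 34.07 and 30.85 CPM in tumor against 10.78 and 14.80 CPM in whole skin, without overlap (log2 1.28 ± 0.32, adjusted p = 0.891). The smallest p after it belonged to Hmox1, with 111.1 and 124.5 CPM in tumor against 80.86 and 90.24 CPM in whole skin (0.39 ± 0.20, adjusted p = 0.911). Nqo1 had 43.96 and 31.12 CPM in tumor against 28.89 and 39.23 CPM in whole skin, and Gclm had 57.11 and 58.28 CPM in tumor against 39.26 and 44.58 CPM in whole skin. The whole skin libraries stood far apart from each other: Gpx3, for example, had 57.06 and 184.8 CPM. Without whole skin 0 the test called 9 members (2 higher and 7 lower) beside 2986 of all genes (19.9%), and without whole skin 1 it called 17 (15 higher and 2 lower) beside 5488 of all genes (36.2%). Without tumor 0 or tumor 1 it called 0 members beside 5 and 6 genes; with 1 whole skin library the lone library is assumed to vary like the tumors. Slc7a11 was called without whole skin 0 (1.09, adjusted p = 0.00102) and without whole skin 1 (1.51, adjusted p = 7.31e-07), and Hmox1 without whole skin 1 (0.46, adjusted p = 0.00563).

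Between tumor and UVB epidermis of week 25, 12 members passed the test, 7 higher and 5 lower in tumor (29.5% of all genes called, 16.8% higher and 12.7% lower). Gpx3, the glutathione peroxidase secreted into plasma, differed most, with 145.6 and 184.9 CPM in tumor against 3.66 and 2.66 CPM in UVB epidermis (5.71 ± 0.65, adjusted p = 5.04e-05). Nqo1 had 43.96 and 31.12 CPM in tumor against 15.40 and 14.53 CPM in UVB epidermis (1.34 ± 0.30, adjusted p = 0.00391). Gstm1 had 60.36 and 67.83 CPM in tumor against 23.49 and 17.37 CPM in UVB epidermis (1.66 ± 0.32, adjusted p = 0.00157). Gpx2, Ftl1, Gsta4 and Osgin1 were the other rises.

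The falls were G6pdx (88.20 and 100.5 CPM in tumor, 166.7 and 165.9 CPM in UVB epidermis), Me1, Txnrd1 (138.7 and 164.5 CPM in tumor, 304.2 and 435.7 CPM in UVB epidermis), Hmox1 and Abcc1. Whole skin against control epidermis, with no UVB in either group, called 19 members (12 higher and 7 lower; 55.6% of all genes, 31.9% higher and 23.7% lower), and Gpx3 (5.78 ± 0.67), Nqo1 (2.79 ± 0.32), G6pdx (-1.76 ± 0.19) and Txnrd1 (-1.67 ± 0.28) had the same signs there as between tumor and UVB epidermis. Summed markers of muscle were 3080 to 3220 CPM in tumor, 2124 to 3975 CPM in whole skin and 13.6 to 74.6 CPM in epidermis, and those of adipocytes, endothelium and macrophages were likewise higher in both. Fibroblast markers were called higher in tumor than in UVB epidermis for 7 of 8 genes and muscle markers for 7 of 7. The part of this other tissue in the members' differences was not tested. The count of 12 fell without any 1 of the 4 libraries, and over all genes fewer were called there as well. Gpx3 and Gstm1 were called in each of the 10 alternatives run. The calls of Nqo1 and G6pdx were lost without tumor 0 (adjusted p = 0.0598 and 0.0612) and that of Txnrd1 without UVB 1 (0.0546). Those of Gpx2 and Me1 were lost without UVB 1 or tumor 0, those of Ftl1, Gsta4 and Hmox1 without UVB 1, tumor 0 or tumor 1, and that of Abcc1 without any 1 of the 4 (adjusted p up to 0.248).

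Set directly against each other, the tumor to whole skin difference and the UVB to control difference in epidermis at week 25 gave no called member (0.0926% of all genes called by edgeR, 0.00661% higher and 0.0859% lower; 6 members at an unadjusted p under 0.05; DESeq2 called 1 member, G6pdx). The estimates were 0.96 ± 0.26 for G6pdx (adjusted p = 0.158) and -1.45 ± 0.43 for Nqo1 (adjusted p = 0.182). Without whole skin 0 the estimates were 1.09 for G6pdx and -1.65 for Nqo1. Over 13 alternatives they ran from 0.854 to 1.1 for G6pdx and from -1.73 to -1.22 for Nqo1.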

How the data were processed

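The authors deposited 1 table of whole-number gene counts for the 16 libraries, on mm10. HISAT2, Picard, featureCounts and DESeq2 are named in the submitters' processing notes, with no versions, and per the file headers duplicates were removed before counting. Strand setting, handling of multi-mapping reads and annotation release: not given in the sources used here. Low genes were dropped by filterByExpr (at least 10 counts, total 15), and the rest were scaled by TMM and tested with edgeR 4.0.16 in R 4.3.3 (quasi-likelihood F test, prior count 0.125, Benjamini-Hochberg over all genes tested). The mean over weeks came from the 12 epidermis libraries with week and treatment as terms (13478 genes, 8 residual degrees of freedom), single weeks from 6 group means of the same libraries (6 degrees), tumor against whole skin from its 4 libraries (14661 genes, 2 degrees), and tumor or whole skin against epidermis from all 16 (15126 genes, 8 degrees). Means are given ± SD over libraries. Alternatives were RLE scaling, no filter, DESeq2 1.42.0, a replicate block, all 16 or only the 4 libraries compared, each library left out, and a correction for the ceiling that duplicate removal sets, with 2 start positions per exonic base and values held at 0.95 of it (48 values). Leaving out the week 2 libraries, and the comparison of the tumor with the epidermis effect, were added after seeing the data. The fit was tested on simulated data. Of 100 genes with a log2 change of 1, it recovered 41 in the week 2 contrast and 9 in tumor against whole skin. Of 100 genes with a log2 change of 2, it recovered 100 and 75. False calls were 7 and 2. Within each contrast the simulation gave all genes the same dispersion and drew the changed genes from those with more counts. It held neither the duplicate ceiling nor the gap between libraries of a pair. Its figures therefore do not extend to low members or to uneven pairs.

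The members, the gene lists and the tests were chosen with earlier results of these data known. Values per library are given for members called in a comparison, up to 6 per direction by smallest p, or for the 2 with the smallest p where none was called. Of the wider list up to 3 per direction and comparison are named. Promoter windows come from RefSeq. Prdx6, Abcc1, Gsta4, Gsr, Hmox1 and Gclc had no window in the table used. Precision rests on depth and on 2 libraries per group, which differed within every group by more than sampling noise (chi-square 4.62 to 46.2 per degree of freedom).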

Additional observations from a re-analysis of the deposited data

Results flagged for a closer look

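Slc7a11 stood out because its UVB effect differed between weeks by a test of the difference itself (edgeR's quasi-likelihood test of the interaction, adjusted p = 0.0343). The week 25 effect less the week 2 effect was -2.56 on the log2 scale, and the week 15 effect less the week 2 effect was -2.46. UVB epidermis had 39.13 and 42.67 CPM at week 2 and 16.78 and 21.80 CPM at week 25, while control epidermis had 6.06 and 6.74 CPM at week 2 and 13.96 and 22.20 CPM at week 25. Over 18 alternatives the estimate ran from -2.87 to -2.20 with the same sign, and the call was kept in 8 of them.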

How the results depend on the processing

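Alternatives were run gene by gene for the members called in the mean over weeks and for those the naming rule takes in the other comparisons, and none of these values changed sign. For tumor against whole skin these members were Slc7a11 and Hmox1 only, and there the called members were 2 higher and 7 lower without whole skin 0 but 15 higher and 2 lower without whole skin 1. Of these values, 481 kept their side of the threshold, 153 fell short of it and 10 passed it newly, mostly where a library was left out. No such values were computed for whole skin against control epidermis, for Osgin1 in tumor against UVB epidermis or for genes of the wider list. In the mean over weeks, Cat and G6pdx also lost their call with no filter (adjusted p = 0.0679 and 0.0649), the ceiling correction (0.0559 and 0.0607) and the replicate block (0.0513 and 0.0576), Sqstm1 with no filter (0.0704), all 16 libraries (0.146) and without the week 2 libraries (0.111), Txn1 with all 16 libraries (0.0617), and Cat without the week 2 libraries (0.0538). Using only the 4 libraries compared, 2 members (684 genes) were called at week 2, 13 members (4562 genes) at week 25 and 22 members (6974 genes) in tumor against UVB epidermis. Using all 16 libraries, 0 members (234 genes) were called at week 15, 5 (1779 genes) at week 25, 0 (33 genes) for the difference of the UVB effect between weeks, 0 (48 genes) between weeks in control epidermis and 7 genes in tumor against whole skin. DESeq2 called 5 members (1006 genes) at week 15, 3 (1123 genes) for the difference of the UVB effect, 5 (2659 genes) between weeks in control epidermis, 3 (1010 genes) between weeks in UVB epidermis, 63 genes in tumor against whole skin, and 1 member (306 genes) for the tumor effect less the epidermis effect. With no filter the same comparisons gave 4 members (1146 genes), 2 (794 genes), 5 (2375 genes), 3 (882 genes), 1 gene and 112 genes. The correction for the duplicate ceiling gave 2 members between weeks in control epidermis and 5 genes for the tumor effect less the epidermis effect. RLE scaling gave 0 members between weeks in control epidermis. For control epidermis the all-gene counts of these fits are not given here, so these counts do not set members apart from other genes. Why these counts moved was not tested.

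Leaving out each library in turn gave 7 to 14 members in the mean over weeks, 2 to 10 at week 2, 0 to 4 at week 15, 1 to 3 at week 25, 0 to 8 for the difference of the UVB effect, 0 to 10 between weeks in control epidermis, 0 to 17 in tumor against whole skin, 3 to 11 in tumor against UVB epidermis and 0 to 3 for the tumor effect less the epidermis effect. Over all genes the counts ran from 125 to 4377 at week 2, 26 to 1463 at week 15, 519 to 976 at week 25, 1 to 2280 for the difference of the UVB effect, 1 to 3924 and 0 to 10 between weeks in control and in UVB epidermis, 5 to 5488 in tumor against whole skin, 2089 to 3405 in tumor against UVB epidermis and 0 to 1265 for the tumor effect less the epidermis effect. Such fits have fewer samples. Slc7a11 reached an adjusted p of at most 0.148 for the difference of the UVB effect.

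The labels do not say whether the replicate numbers 0 and 1 pair the samples. Over 28 pairs of groups, the differences between library 1 and library 0 correlated at -0.16 to 0.23, over 0.1 in 7 pairs. Each group gives only 1 such difference, so these correlations cannot settle whether the samples were paired. With the replicate block 11 members were called in the mean over weeks, 6 at week 2, 1 at week 15, 8 at week 25 and 13 in tumor against UVB epidermis. The share over all genes is not given here for these blocked fits. These counts therefore do not show whether members differed from other genes. Over all genes the block gave 97 for the difference of the UVB effect, 410 and 25 between weeks in control and UVB epidermis and 235 in tumor against whole skin. Depth limits the low members, of which Gpx3 and Osgin1 had as few as 3 and 9 counts in a library, and the duplicate ceiling limits the most abundant.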
